A study of Bos taurus with 54 samples.

Results

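The response of blood cells to a day of heat was followed in 3′ mRNA-Seq libraries of the Takara SMART-Seq v4 3′ DE type, which read the 3′ end of polyadenylated transcripts. Of the 54 libraries of the series, the 26 used here were all Takara libraries whose time was not in conflict between sources, 13 from control and 13 from heat stress. All animals were male Holstein calves in rooms with a controlled climate, and their blood was taken alongside another project's trial of short-term heat. Control blood was drawn at about 6 AM before heat exposure (0 h), and heat stress blood at about 6 PM, directly after 12 h of heat exposure. The 26 libraries came from 14 calves, of which 12 had both times, 1 had the control alone and 1 had heat stress alone. No calf was sampled in the evening without heat, so the heat, the time of day and anything else that changed over the 12 h cannot be told apart. Red cells of the whole blood were lysed with NH4Cl and the pelleted cells were taken into Trizol. The libraries of this kit were pooled and sequenced together.

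Cells exposed to heat activate the heat shock factor, which raises the transcription of molecular chaperones that refold or clear damaged proteins, while a small set of RNA-binding proteins that are made in the cold is shut down as temperature rises. A heat load also releases glucocorticoids, which act on leukocytes through the glucocorticoid receptor and move neutrophils from marrow and vessel walls into the blood and lymphocytes out of it. Whole blood is a mixture of neutrophils, lymphocytes, monocytes, eosinophils, platelets and remaining red cells, so that in these bulk samples fewer cells of a type and less RNA per cell cannot be told apart.

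Reads counted on genes ranged from 5140595 to 20699030 per library, with medians of 11217979 in control and 11695049 in heat stress. A library was compared on the scale of CPM, the counts of a gene per library of a fixed total, after trimmed mean of M values (TMM) scaling, which corrects for a few abundant genes taking up reads. The TMM factors showed that 6 of the 13 heat stress libraries stood apart. They came from calves 7, 15, 16, 18, 36 and 40 and had factors of 0.695 to 0.862, whereas the other 7 heat stress libraries had 0.985 to 1.21 and the 13 controls 0.974 to 1.17. Results are therefore given with all libraries and, where this matters, without these 6, an alternative that was chosen after seeing the data. The share of reads on protein-coding mitochondrial genes was 1.78% ± 0.19 (SD, n = 13) in control and 1.33% ± 0.378 (SD, n = 13) in heat stress (two-sided permutation test, adjusted p 0.012 over 10 library measures), and it was higher after heat in 1 of 12 calves. The markers of neutrophils, T cells, B cells, monocytes, platelets and red cells were all detected, and globin took up at most 0.330% of the reads on genes after the lysis of red cells. The alpha globin genes HBA and HBA1 had 1 and 0 counts over the 26 libraries, and reads that map to more than 1 place were not counted. This share may therefore be too low, and the effect of the lysis on it was not tested.

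Heat stress was followed by a broad shift in the blood transcriptome. Of 12620 genes with enough counts to be tested, 2325 (18.4%) were higher and 1321 (10.5%) were lower in heat stress by edgeR's quasi-likelihood test at an adjusted p under 0.05. This test took the libraries as independent, although most calves gave a library at each time. With the calf as a block (24 libraries), 1881 genes were higher and 1284 lower. Of the genes called without the block, 1800 higher and 1039 lower genes were called with it too. Calls and fold changes are from the fit without the block unless another fit is named. The rises were larger than the falls. Among the higher genes the median log2 fold change (heat stress minus control) was 0.88, 984 genes at least doubled, 223 reached a log2 fold change of 2 and 21 reached 4. Among the lower genes the median was -0.53, 139 were at least halved and 2 fell by 2 or more on the log2 scale. Of 837 long noncoding RNAs tested, 165 were higher (19.7%) and 61 lower (7.29%), near the shares over all genes. The balance depended on the scaling. With the plain total count as library size the median of all genes moved from -0.05 to -0.27 and the calls turned to 1303 higher and 2185 lower, so that 37.4% of the called genes were higher in place of 63.8%. Fold changes are given on the TMM scale, and where the median of a gene list changes sign under total counts, that value is given.

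The size of the response differed widely between calves. The standard deviation of the within-calf log2 changes over all genes was smallest in calf 41 (0.497) and largest in calf 18 (1.395), and between 371 and 2849 genes at least doubled in a calf. The largest rises were concentrated in the 6 calves named above. A TMM factor falls when abundant genes rise, so this was fixed in part by the choice of the libraries and is given as a description. They had the 6 largest changes of the 12 in 20 of the 21 genes with a log2 fold change of at least 4 (95.2%) and in 175 of the 223 genes with at least 2 (78.5%), beside 1193 of all 12620 genes (9.45%). Over all called genes, these calves had the 6 largest changes in 1084 of the 2325 higher (46.6%). They had the 6 lowest changes in 199 of the 1321 lower (15.1%). The share of all genes with the 6 lowest changes in these calves was not taken, so the concentration of the falls cannot be judged. When their heat stress libraries were left out, leaving 7 against 13 controls, 11 genes were called higher and 5 lower, and 1321 genes had an unadjusted p under 0.05. All 16 had been called in the full comparison. Most of the other genes kept their direction with smaller changes. Of the 2325 higher genes 95.9% kept their sign while the median log2 fold change went from 0.88 to 0.27, and of the 1321 lower genes 100% kept their sign with a median of -0.30 in place of -0.53. These genes were picked in the full comparison, which shares the 13 controls and the 7 heat stress libraries. A kept sign was therefore largely fixed in advance and is given as a description. The 7 heat stress libraries left included that of calf 29, which has no control and held 823 CPM of BPI (control maximum 41.2). The part of this library in the values without the 6 libraries was not tested.

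**Figure D1:**
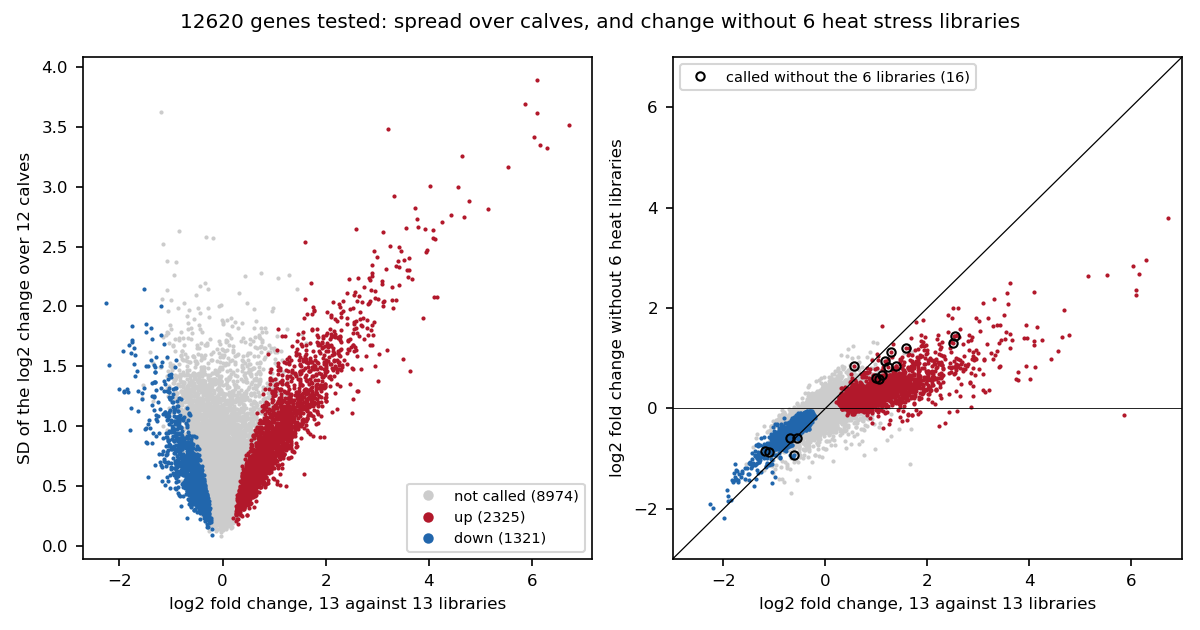
Each point is 1 of the 12620 genes tested, called higher (red), lower (blue) or not called (grey). Left, standard deviation of the within-calf log2 change over 12 calves (y axis) against the log2 fold change (heat stress minus control, x axis). Right, log2 fold change without the 6 heat stress libraries that stood apart (y axis) against that with all libraries (x axis), with the 16 genes called in both ringed and the line of equality drawn. Most of the higher genes lie below that line, with a median of 0.27 in place of 0.88.

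Some chaperones of the heat shock response and some of their helpers were higher after heat. Of 43 heat shock chaperones tested, 12 were higher and 0 were lower (27.9% against 18.4% of all genes), with a list median of 0.14 (-0.09 with total counts, where 7 were higher and 2 lower). HSPA8, the constitutive cytosolic HSP70 (chromosome 15, positions 33679011 to 33683436, ARS-UCD2.0), lay at 187–351 CPM (median 313.7) in control and 364–2714 CPM (median 566) in heat stress, and its log2 fold change was 1.39 ± 0.26 (adjusted p 5.63e-04). Every heat stress library was above every control, and all 12 calves rose. HSPH1, the HSP110 that exchanges nucleotide on HSP70, went from 21.5–35.2 CPM (median 28) to 22.96–205 CPM (median 61.8), with a log2 fold change of 1.28 ± 0.22 (adjusted p 3.71e-04). It was higher in 11 calves and above the control range in 12 of 13 heat stress libraries, and the groups overlapped in the remaining one.

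The stress-inducible HSP70 gene HSPA1A (chromosome 23, positions 27520317 to 27522790) lay at 15.9–41.7 CPM (median 19.3) in control and 29.3–1040 CPM (median 54.1) in heat stress. Its log2 fold change was 2.51 ± 0.50 (adjusted p 8.21e-04), 1.498 (adjusted p 0.0146) with the calf as a block, and 1.31 (adjusted p 0.000576) without the heat stress library of calf 18, which held the 1040 CPM. All 12 calves rose, by 0.25 to 5.36 on the log2 scale, and 8 of the 13 heat stress libraries were above the control range. HSPA1A has a near-identical neighbour in mammals, and how reads of the copies were split was not tested. AHSA1, the activator of the HSP90 ATPase, rose in all 12 calves from 38.95–61.2 CPM (median 53.6) to 58.7–310.4 CPM (median 81.3), with a log2 fold change of 0.99 ± 0.20 (adjusted p 8.40e-04). The inducible HSP90 HSP90AA1 rose by 1.27 ± 0.23 (adjusted p 5.21e-04), the HSP40 DNAJA1 by 1.96 ± 0.43 and the HSP70 to HSP90 adaptor STIP1 by 0.70 ± 0.16. HSPB1, the small heat shock protein HSP27, was at 0.56 ± 0.19 (adjusted p 0.0264), a call that was lost with the calf as a block (adjusted p 0.0688), and the call of the HSP90 co-chaperone FKBP4 was lost in the same way (adjusted p 0.103).

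Most of the chaperones, 31 of the 43 tested, were not called. The constitutive HSP90AB1 was at 0.23 ± 0.15 (adjusted p 0.240), the HSP40 DNAJB1 at 0.52 ± 0.21 (adjusted p 0.0595), and the mitochondrial chaperonins HSPD1 and HSPE1 at -0.06 ± 0.10 and 0.11 ± 0.13. The transcription factor HSF1 itself was at -0.44 ± 0.26 (adjusted p 0.190). Without the 6 libraries that stood apart, HSPH1 (1.13, adjusted p 9.61e-06), HSPA8 (0.85, adjusted p 0.0134), HSPA1A (1.30, adjusted p 0.0168), AHSA1 (0.60, adjusted p 0.0231) and HSPB1 (0.84, adjusted p 0.0407) were still called, and the list median was 0.17.

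RBM3 and CIRBP, the RNA-binding proteins induced by mild cold, moved the other way. RBM3 (chromosome X, positions 86690789 to 86694645) lay at 122–160.2 CPM (median 134) in control and 56.9–126 CPM (median 82.4) in heat stress (log2 fold change -0.69 ± 0.09, adjusted p 2.12e-04). CIRBP fell from 99.8–155 CPM (median 121) to 49.3–132 CPM (median 82.3) (log2 fold change -0.56 ± 0.12, adjusted p 0.00138). Both were lower in 12 of 12 calves, the groups overlapped in 1 heat stress library of RBM3 and 2 of CIRBP, and without the 6 libraries the changes were -0.59, adjusted p 0.0161 and -0.58, adjusted p 0.0407. Of the 4 listed genes of this kind, 2 were lower and 1 higher (50% and 25%, against 10.5% and 18.4% of all genes). The higher one was the endoplasmic reticulum shaping protein RTN3, which lies downstream of RBM3 in neurons (0.84 ± 0.18, adjusted p 0.00161).

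Other genes separated the times at least as sharply. BANP, a nuclear protein that binds CpG-rich promoters (chromosome 18, positions 13381459 to 13450242), had the smallest p of all genes tested. It went from 19.6–35.6 CPM (median 27.04) in control to 37.5–102 CPM (median 59.6) in heat stress, with a log2 fold change of 1.23 ± 0.15 (adjusted p 1.03e-04), and no heat stress library was as low as any control. RSRP1, an arginine and serine rich protein (chromosome 2, positions 127708664 to 127712697), rose from 16.7–32.5 CPM (median 25.7) to 28.6–156 CPM (median 72.2) (log2 fold change 1.58 ± 0.22, adjusted p 2.12e-04), in all 12 calves. IFT43, a subunit of the intraflagellar transport complex (chromosome 10, positions 87267982 to 87371779), fell from 8.40–13.9 CPM (median 11.4) to 2.13–8.35 CPM (median 4.40) (log2 fold change -1.18 ± 0.17, adjusted p 2.86e-04) and was lower in every heat stress library than in any control. The groups did not overlap in 4 genes in all, 3 higher and 1 lower. Beside HSPA8, BANP and IFT43 this held for a gene chosen after its values were seen, PANK1, the kinase that starts coenzyme A synthesis, at 8.87–12.1 CPM (median 10.4) in control and 12.8–39.6 CPM (median 19.2) in heat stress (log2 fold change 1.05 ± 0.16).

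BANP, RSRP1, IFT43 and PANK1 were also among the 16 genes called without the libraries that stood apart, with log2 fold changes of 0.82, 1.20, -0.85 and 0.58. The rest of the 16, beside the chaperones, RBM3 and CIRBP, were named after their values were seen. They held a pair of transporters that take up small solutes, the amino acid carrier SLC38A2, which went from 99.8–169 CPM (median 122) to 130–578 CPM (median 256) (log2 fold change 1.11 ± 0.17), and the myo-inositol carrier SLC5A3, from 5.24–11.3 CPM (median 7.77) to 10.3–53.0 CPM (median 15.98) (log2 fold change 1.18 ± 0.21). The mitochondrial methionine sulfoxide reductase MSRB2 fell in all 12 calves, from 12.2–22.9 CPM (median 13.8) to 3.17–12.98 CPM (median 7.42) (log2 fold change -1.11 ± 0.18). The DNA helicase HELB was lower in the full comparison, with a log2 fold change of -0.62 ± 0.18, in 9 of 12 calves, and the long noncoding RNA LOC132343898 rose by 2.54 ± 0.36, in 11 of 12 calves.

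**Figure D2:**
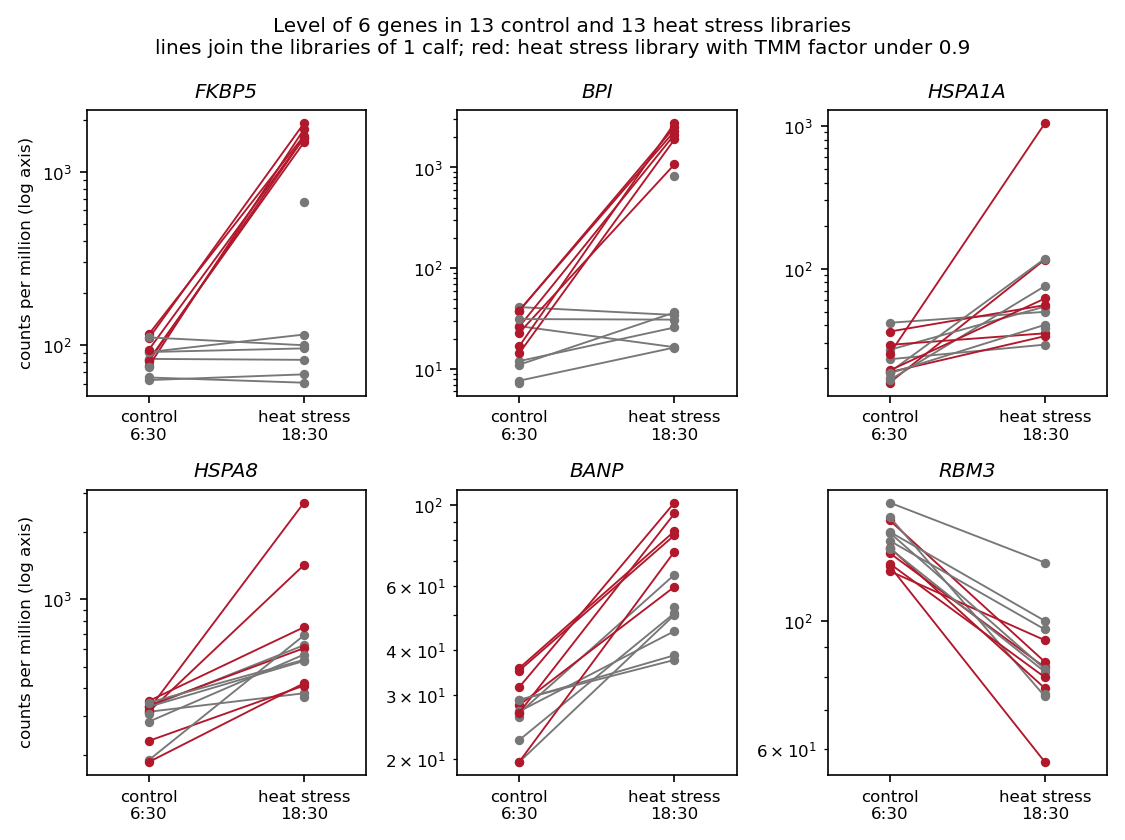
CPM on log axes (y axis) of 6 genes in the 13 control and 13 heat stress libraries (x axis), with lines joining the libraries of 1 calf and the calves whose heat stress library stood apart in red. HSPA8 and BANP show no overlap between the times, whereas FKBP5 and BPI reach 1904 and 2745 CPM in the red calves and stay within or near the control range in the other calves sampled at both times.

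The unfolded protein response, which is set off by misfolded protein in the endoplasmic reticulum, was partly higher. Of 28 genes tested, 8 were higher (28.6% against 18.4% of all genes) and 0 lower, with a median of 0.11 (-0.09 with total counts). ATF4, the transcription factor of that branch, went from 194–269.7 CPM (median 234) to 195–723 CPM (median 363) (log2 fold change 0.88 ± 0.18, adjusted p 0.00113) and rose in 11 of 12 calves, with overlap at the low end. Its target DDIT3, also called CHOP, rose by 1.08 ± 0.22, although 18.2% of its reads lay on the opposite strand. HERPUD1, a member of the degradation complex of the endoplasmic reticulum, rose by 0.96 ± 0.26 and the HSP40 DNAJB9 by 0.81 ± 0.20. The chaperone BiP (HSPA5) was at 0.25 ± 0.14 (adjusted p 0.188) and the transcription factor XBP1 at 0.07 ± 0.14 (adjusted p 0.736).

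Genes that respond to glucocorticoids rose together. Of 26 tested, 16 were higher (61.5% against 18.4% of all genes) and 0 lower, with a median log2 fold change of 1.05. FKBP5, a chaperone of the glucocorticoid receptor that the receptor itself induces (chromosome 23, positions 9555619 to 9677831), lay at 62.9–115.5 CPM (median 83.3) in control and 60.7–1904 CPM (median 669.5) in heat stress, with a log2 fold change of 3.29 ± 0.53 (adjusted p 3.09e-04). The calves did not move alike. In the 6 calves that stood apart it rose by 3.80 to 4.54 on the log2 scale, and in the other 6 calves the change was -0.15 to 0.34. The heat stress library of calf 29, which has no control, held 669.5 CPM. With the calf as a block the log2 fold change was 2.10 (adjusted p 0.0262), and without the 6 libraries it was 0.98, adjusted p 0.331.

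TSC22D3, the glucocorticoid-induced leucine zipper, went from 1116–2345 CPM (median 1767) to 1171–7051 CPM (median 3605) (log2 fold change 1.08 ± 0.24, adjusted p 0.00195), and DDIT4, an inhibitor of mTOR signalling, from 5.21–15.6 CPM (median 8.02) to 6.71–183 CPM (median 34.9) (log2 fold change 2.79 ± 0.46). Each rose in 11 of 12 calves, with heat stress libraries reaching down into the control range. The phosphatase DUSP1 rose by 3.09 ± 0.55, the anti-inflammatory annexin ANXA1 by 2.13 ± 0.42 and the receptor gene NR3C1 by 0.55 ± 0.13. PER1, a clock gene with glucocorticoid response elements, was at 0.61 ± 0.34 (adjusted p 0.170). The calls of KLF9 and TNFAIP3 were lost with the calf as a block (adjusted p 0.257 and 0.0927), and without the 6 libraries 0 of the 26 were called and the median was 0.30.

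Neutrophil genes rose with them. Of 17 granule and secreted proteins tested, 12 were higher (70.6% against 18.4% of all genes) and 0 lower, with a median of 1.69. Of 21 surface receptors 14 were higher (66.7%) and 0 lower, with a median of 0.96. The summed level of the granule genes was 4147 to 18252 CPM (median 12239) in control and 4006 to 115696 CPM (median 43846) in heat stress. The summed receptors went from 2224 to 6956 CPM (median 4312) to 2873 to 18766 CPM (median 7756). Both sums overlapped between the times. Within calves the median granule gene changed by -0.51 to 3.85 and was higher in 10 of 12. The 5 tested members that were not called were ELANE, LYZ, CHI3L1, RETN and CD177, and the lowest log2 fold change of the granule list was -0.78. The members too low to be tested included MPO, AZU1, PRTN3, MMP8 and the cathelicidins CAMP, CATHL1 and CATHL2.

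BPI, which binds and kills gram-negative bacteria, lay at 7.33–41.2 CPM (median 22.9) in control and 16.4–2745 CPM (median 823) in heat stress (log2 fold change 5.54 ± 0.83, adjusted p 2.86e-04). With the calf as a block the change was 3.505 (adjusted p 0.0236). It was higher in 9 of 12 calves, and 7 of 13 heat stress libraries were above the control range. S100A8 and S100A12, calcium-binding proteins of the neutrophil cytosol, went from 574–2715 CPM (median 1854) to 715–18490 CPM (median 7967) (log2 fold change 2.30 ± 0.43) and from 2487–11144 CPM (median 6700) to 1812–71884 CPM (median 26249) (log2 fold change 2.29 ± 0.42). The gelatinase MMP9 rose by 2.44 ± 0.45, the vitamin B12 binder TCN1 by 3.45 ± 0.57, haptoglobin (HP) by 2.09 ± 0.44 and lactoferrin (LTF) by 1.45 ± 0.42.

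Among the receptors, C5AR1, the receptor of complement fragment C5a, went from 180.1–641 CPM (median 381) to 124–4839 CPM (median 1810) (log2 fold change 2.68 ± 0.45, adjusted p 3.71e-04). CXCR4, which holds neutrophils in the marrow, was above the control range in 12 of 13 heat stress libraries, at 36.1–95.9 CPM (median 80.8) in control and 53.4–633 CPM (median 181) in heat stress (log2 fold change 1.64 ± 0.29, adjusted p 4.12e-04). The chemokine receptor CXCR2 rose by 1.80 ± 0.38, the amplifying receptor TREM1 by 2.14 ± 0.36 and alkaline phosphatase (ALPL) by 3.41 ± 0.58. The 7 receptors not called were CSF3R, C3AR1, LTB4R, FCGR3A, CEACAM1, CSF1R and MME, and the lowest log2 fold change of the receptor list was -0.43. Without the 6 libraries 0 of the granule or receptor genes were called, and their medians were 0.62 and 0.36.

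Receptor genes of the interleukin-1 family, which bind the fever cytokines and interleukin-18, rose. Of 19 family members tested, 10 were higher and 1 lower (52.6% and 5.26%, against 18.4% and 10.5% of all genes), with a median of 0.76. The IL-18 receptor chain IL18RAP went from 2.39–20.8 CPM (median 7.65) to 4.86–315.4 CPM (median 89.8) (log2 fold change 3.96 ± 0.60, adjusted p 2.86e-04), and its partner IL18R1 rose by 4.09 ± 0.63. The coreceptor IL1RAP rose by 2.89 ± 0.54, the receptor antagonist IL1RN by 1.16 ± 0.27 and the adaptor MYD88 by 1.68 ± 0.35. The cytokine IL1B was at 0.14 ± 0.28 (adjusted p 0.748), and SIGIRR, an inhibitory receptor of the family, fell, with a log2 fold change of -0.61 ± 0.17 (adjusted p 0.00893).

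The JAK, STAT and SOCS pathway carries cytokine signals to the nucleus. Of 24 of its genes 13 were higher (54.2% against 18.4% of all genes) and 0 lower, with a median of 0.51. STAT3, the factor downstream of IL-6 and G-CSF receptors, went from 35.8–105 CPM (median 59.2) to 55.6–513 CPM (median 132) (log2 fold change 1.91 ± 0.35, adjusted p 5.00e-04). Its feedback inhibitor SOCS3 rose by 1.04 ± 0.30, SOCS1 by 0.84 ± 0.19 and the phosphatase PTPN6, which dampens cytokine receptors, by 1.16 ± 0.20. Within calves the median of the list was above 0 in 11 of 12. Of 23 NF-kB subunits and inhibitors, 10 were higher and 1 lower (43.5% and 4.35%, against 18.4% and 10.5% of all genes), with a median of 0.29. The inhibitor NFKBIA went from 74.9–272 CPM (median 149) to 86.6–1473 CPM (median 299) (log2 fold change 2.005 ± 0.38), with overlap between the times.

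Of 28 immediate early genes, which respond to stimuli within minutes, 11 were higher and 1 lower (39.3% and 3.57%, against 18.4% and 10.5% of all genes). Their median was 0.21 (-0.04 with total counts). FOSL2, an AP-1 subunit, rose in all 12 calves, from 28.6–76.5 CPM (median 51.7) to 41.5–341 CPM (median 123) (log2 fold change 1.62 ± 0.26, adjusted p 3.09e-04), and KLF6 rose by 1.52 ± 0.31. Another AP-1 subunit, JUND, fell in all 12 calves (-1.02 ± 0.22), with 29.3% of its reads on the opposite strand. FOS and EGR1, the best known genes of the class, were at -0.21 ± 0.25 and 0.14 ± 0.35 (adjusted p 0.540 and 0.789).

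Of 23 chemokines and cytokines tested, 5 were higher and 3 lower (21.7% and 13%), near the 18.4% and 10.5% of all genes, with a median of 0.23 (0.01 with total counts). The growth factor TGFA rose by 2.56 ± 0.46 and the T cell attractant IL16 by 0.46 ± 0.15, while LTB, the membrane lymphotoxin that lymphocytes make, went from 1788–2625 CPM (median 2094) to 866–2486 CPM (median 1188) (log2 fold change -0.48 ± 0.17, adjusted p 0.0295). TNF was at -0.17 ± 0.21 (adjusted p 0.569). Of 16 Toll-like receptors and partners, 4 were higher (25% against 18.4% of all genes) and 0 lower, or 5 and 2 with the calf as a block. Their median was 0.08 (-0.15 with total counts). TLR4, the endotoxin receptor, led them, at 10.6–61.2 CPM (median 33.5) in control and 31.7–281.8 CPM (median 79.1) in heat stress (log2 fold change 1.62 ± 0.28, adjusted p 4.18e-04).

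Of 43 interferon-stimulated genes 4 were higher and 0 lower, 9.30% against 18.4% of all genes, with a median of -0.04, and 3 were higher and 2 lower with the calf as a block. The exonuclease ISG20 rose by 1.42 ± 0.34, SAMD9 by 1.18 ± 0.27 and the secreted LGALS3BP by 1.27 ± 0.27, while the call of OASL (0.87 ± 0.29) was lost with the calf as a block (adjusted p 0.165). The antiviral genes MX1 and ISG15, which mark an interferon response, were at -0.22 ± 0.28 and -0.41 ± 0.42 (adjusted p 0.572 and 0.475).

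**Figure D3:**
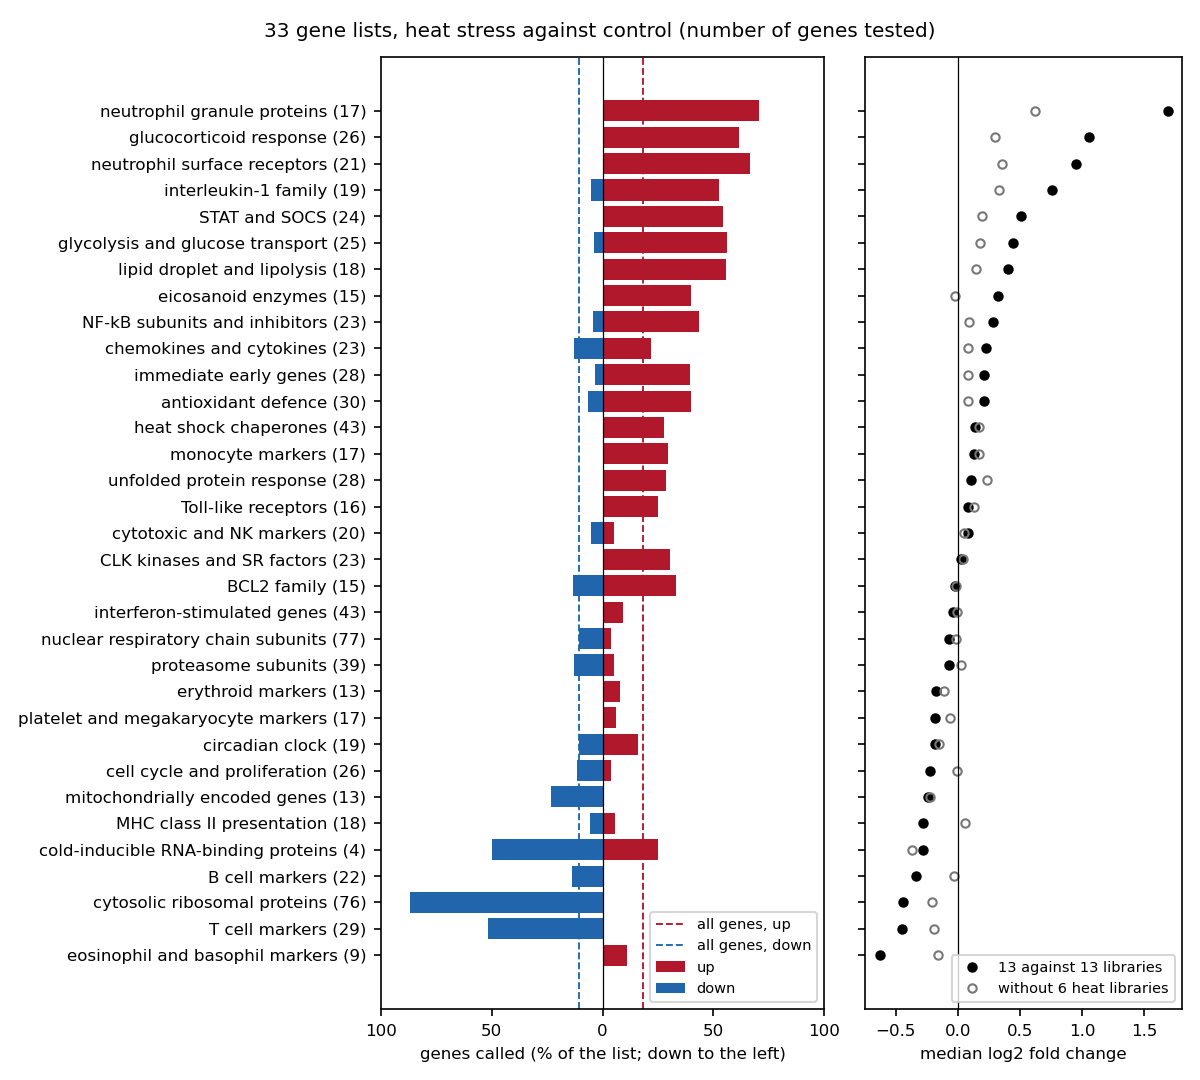
Left, share of the tested genes of each of the 33 gene lists (y axis, number tested in brackets) called higher (red, to the right) or lower (blue, to the left) in percent, with dashed lines at the shares over all genes, 18.4% and 10.5%. Right, median log2 fold change of each list with all libraries (filled) and without the 6 heat stress libraries that stood apart (open), where the neutrophil granule proteins go from 1.69 to 0.62 and the heat shock chaperones from 0.14 to 0.17.

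Without the 6 libraries that stood apart, 5 heat shock chaperones and the 2 cold-inducible genes were called, and 0 genes of any other list. Of all 12620 genes 11 were called higher and 5 lower in that fit, which was chosen after seeing the data. It set 7 heat stress libraries against 13 controls. The 7 included that of calf 29, with high levels of FKBP5 and BPI (669.5 and 823 CPM).

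Genes of glucose and lipid metabolism rose. Of 25 genes of glycolysis and glucose transport, 14 were higher and 1 lower (56.0% against 18.4%), with a median of 0.45. The glucose transporter SLC2A3 rose in all 12 calves, from 153–429.5 CPM (median 266) to 219–1546 CPM (median 656) (log2 fold change 1.59 ± 0.29, adjusted p 5.21e-04). PFKFB3, which makes the activator of phosphofructokinase, rose by 1.97 ± 0.35, the pyruvate kinase PKM by 1.27 ± 0.23 and the lactate dehydrogenase LDHA by 1.00 ± 0.24. PDK1, a kinase that closes pyruvate dehydrogenase, fell in all 12 calves (-0.61 ± 0.16, adjusted p 0.00613).

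Of 18 genes of lipid droplets and lipolysis, 10 were higher (55.6% against 18.4% of all genes) and 0 lower, with a median of 0.41. With the calf as a block 6 were higher and 1 lower. The droplet coat protein PLIN2 rose by 1.69 ± 0.33 and DGAT2, which makes triglyceride, by 2.10 ± 0.44. Of 15 enzymes and receptors of eicosanoids 6 were higher (40% against 18.4% of all genes) and 0 lower, or 6 and 1 with the block. Their median was 0.33 (-0.02 without the 6 libraries). ALOX5AP, which hands arachidonic acid to 5-lipoxygenase, rose by 2.27 ± 0.38, and the inducible cyclooxygenase PTGS2 was at 0.43 ± 0.47 (adjusted p 0.509).

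Of 30 antioxidant genes 12 were higher and 2 lower (40% and 6.67%, against 18.4% and 10.5% of all genes). Their median was 0.21 (-0.05 with total counts). The ferritin light chain FTL went from 1595–2371 CPM (median 1775) to 1654–8548 CPM (median 3714) (log2 fold change 1.28 ± 0.25, adjusted p 6.79e-04), the peroxiredoxin PRDX5 rose by 1.68 ± 0.32 and NFE2L2, the transcription factor of the oxidative stress response, by 1.44 ± 0.26. PRDX4, the peroxiredoxin of the secretory pathway, fell (-0.27 ± 0.09). Of 15 BCL2 family genes 5 were higher and 2 lower (33.3% and 13.3%, against 18.4% and 10.5% of all genes), with a median of -0.02. The survival factor MCL1 rose by 1.20 ± 0.27, and so did BBC3, the death inducer called PUMA (1.17 ± 0.21), of whose reads 23% lay on the opposite strand.

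A small group of splicing regulators rose. Of 23 CLK kinases and SR factors 7 were higher (30.4% against 18.4% of all genes) and 0 lower, with a median of 0.02 (-0.17 with total counts). RBM39, a splicing cofactor, rose in all 12 calves, from 354–520.1 CPM (median 407) to 420.5–1106 CPM (median 633) (log2 fold change 0.72 ± 0.13, adjusted p 4.52e-04). The kinases CLK1 and CLK4, which phosphorylate SR proteins, rose by 1.05 ± 0.22 and 0.96 ± 0.20.

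T cell genes fell. Of 29 T cell markers 15 were lower and 0 higher (51.7% against 10.5% of all genes), with a median of -0.45, and within calves the median was below 0 in 11 of 12. GATA3, a transcription factor of T cell development, fell in all 12 calves, from 67.8–161 CPM (median 106) to 31.1–128 CPM (median 48.9) (log2 fold change -0.91 ± 0.21, adjusted p 0.00285). The T cell factors BCL11B and TCF7 were lower in 11 of 12 calves each, with log2 fold changes of -0.91 ± 0.23 and -0.63 ± 0.15. The costimulatory receptor CD27 changed by -0.49 ± 0.10 (adjusted p 0.00100).

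CD3E, a chain of the T cell receptor complex, lay at 108–238 CPM (median 149) in control and 48.7–189.5 CPM (median 108) in heat stress (log2 fold change -0.55 ± 0.19, adjusted p 0.0304), with much overlap. The coreceptors CD4 and CD8A, which define helper and cytotoxic cells, were at -0.23 ± 0.17 and -0.08 ± 0.17 (adjusted p 0.325 and 0.753). The summed T cell markers were 2552 to 5049 CPM (median 3254) in control and 1609 to 3942 CPM (median 2394) in heat stress. Without the 6 libraries 0 of the 29 were called, and the median was -0.19.

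Of 22 B cell markers 3 were lower (13.6% against 10.5% of all genes) and 0 higher, and 9 were lower with the calf as a block, with a median of -0.33. The kinase BLK was at -0.98 ± 0.38 (adjusted p 0.0498) and at -1.29 (adjusted p 0.0150) with the block. CD79B, a chain of the B cell receptor, was at -0.47 ± 0.19 (adjusted p 0.0682) and was called with the block alone, at -0.57 (adjusted p 0.0277). The summed B cell markers were 1557 to 2568 CPM in control and 1026 to 2631 CPM in heat stress, and the groups overlapped. Of 18 genes of MHC class II presentation 1 was higher and 1 lower (5.56% each, against 18.4% and 10.5% of all genes). Their median was -0.28 (0.06 without the 6 libraries), and with the block 1 was higher and 4 were lower. The peptide loader BOLA-DMA was lower, at -0.55 ± 0.20 and the class II chain BOLA-DRA was at -0.36 ± 0.20 (adjusted p 0.169).

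Of 20 cytotoxic and NK cell markers 1 was higher and 1 lower (5% each, against 18.4% and 10.5% of all genes). These were the activating receptor NCR1 (1.20 ± 0.24) and its relative NCR3 (-0.37 ± 0.14), and the list median was 0.08 (-0.15 with total counts). Of 17 monocyte markers 5 were higher (29.4% against 18.4% of all genes), or 3 higher and 1 lower with the block, with a median of 0.13 (-0.11 with total counts). The haemoglobin scavenger CD163 rose by 1.62 ± 0.40, and the monocyte coreceptor CD14 was at 0.26 ± 0.24 (adjusted p 0.425). The summed monocyte markers were 619 to 3327 CPM in control and 1214 to 3277 CPM in heat stress.

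Of 17 platelet, 13 erythroid and 9 eosinophil and basophil markers, 1 of each was higher (5.88%, 7.69% and 11.1%, against 18.4% of all genes) and 0 lower. The medians were -0.18, -0.18 and -0.63. With the block these counts were 1 and 1, 0 and 0, and 1 and 1. Their summed levels overlapped between the times, at 3750 to 12042 CPM against 3535 to 8846 CPM for platelets, 785 to 3987 CPM against 976 to 2883 CPM for red cells, and 91.9 to 670.1 CPM against 88.6 to 334 CPM for eosinophils and basophils. The part of these cell types in the changes of other genes was not tested.

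**Figure D4:**
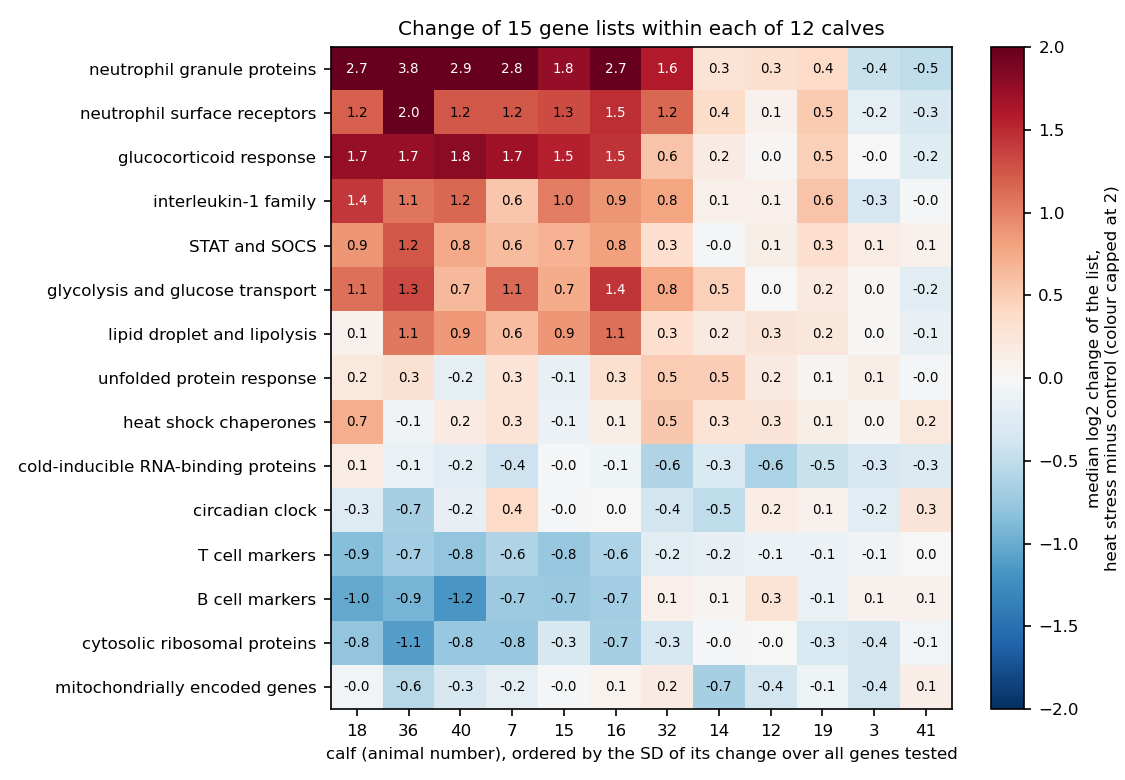
Median within-calf log2 change (heat stress minus control, number and colour) of 15 gene lists (y axis) in each of the 12 calves (x axis, ordered by the spread of the change over all genes). The neutrophil granule proteins run from -0.51 in calf 41 to 3.85 in calf 36, whereas the cytosolic ribosomal proteins are below 0 in all 12 calves.

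Genes of the ribosome fell together. Of 76 cytosolic ribosomal proteins 66 were lower and 0 higher (86.8% against 10.5%), and 54 were lower with the calf as a block. The median was -0.44, and the median within calves ran from -1.10 to -0.01, below 0 in all 12. Their summed level was 66774 to 125223 CPM (median 82578) in control and 46059 to 78785 CPM (median 67230) in heat stress. RPL5, a large-subunit protein, fell in all 12 calves, from 279.7–1012 CPM (median 529.5) to 255–457 CPM (median 363) (log2 fold change -0.67 ± 0.14, adjusted p 0.00139). RPL3 also fell in all 12, from 612–965 CPM (median 712) to 329–702 CPM (median 518) (log2 fold change -0.52 ± 0.11). Ribosomal protein genes have many near-identical processed copies, and reads that map to more than 1 place were not counted. Without the 6 libraries 0 were called and the median was -0.21.

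Of 13 mitochondrially encoded genes 3 were lower (23.1% against 10.5% of all genes) and 0 higher, with a median of -0.24, and 1 was lower with the block. COX2, a subunit of cytochrome oxidase, was lower, at -0.34 ± 0.12 (adjusted p 0.0280). Of 77 nuclear genes of the respiratory chain 3 were higher (3.9% against 18.4% of all genes) and 8 lower (10.4%, near the 10.5% of all genes). Their median was -0.07, and 4 were lower with the block. Of 39 proteasome subunits 2 were higher and 5 lower (12.8%), near the 10.5% of all genes, with a median of -0.07. Of 26 cell cycle genes 1 was higher (3.85% against 18.4% of all genes), the chromatin protein HMGB2 (1.03 ± 0.21). The 3 lower genes (11.5%, near the 10.5% of all genes), or 1 with the block, included STMN1 (-0.40 ± 0.14), which acts on microtubules. The proliferation marker MKI67 was at 0.06 ± 0.14 (adjusted p 0.780).

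Among the genes with the largest falls, histones stood out. Of the 12 named for the largest falls that recurred in at least 11 calves, 9 encoded histones of the H1, H2A and H2B types. H1-12 went from 24.96–88.7 CPM (median 43.4) to 3.60–47.3 CPM (median 15.7) (log2 fold change -1.22 ± 0.29) and H2BC8 from 10.8–22.6 CPM (median 18.9) to 0.3995–15.9 CPM (median 5.97) (log2 fold change -1.42 ± 0.30). The others of the 12 included ADIRF, an adipogenesis regulator, which fell in all 12 calves from 15.0–57.7 CPM (median 27.5) to 2.86–28.6 CPM (median 8.44) (log2 fold change -1.44 ± 0.28, adjusted p 6.37e-04), and PET117, a cytochrome oxidase assembly factor (-1.34 ± 0.38), which was at 0.08 in libraries with low sample numbers in the labels and at -2.26 in those with high numbers (interaction adjusted p 0.0166).

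The whole histone family was therefore described after its values were seen, with no test of the family. Of 68 histone genes tested 35 were lower and 7 higher (51.5% and 10.3%, against 10.5% and 18.4% of all genes). Their median was -0.79, with a range from -1.83 (H3C1) to 1.27 (H1-6). Called or not, 32 of the 68 were lower in 11 or 12 calves. By type, 7 of 9 H3, 7 of 13 H4, 9 of 19 H2A, 7 of 18 H2B and 5 of 9 H1 genes were lower. The 7 that rose were H1-6, H2AC6, H2AJ, H2BC14, H2BC15, H2BC16 and H2BC21, while the opposite strand held 93.8% of the reads of H1-6 and 93.3% of those of H2BC16. The summed level of the 13 H4 genes was 124 to 244 CPM in control and 44.7 to 204 CPM in heat stress, while the sum over all 68 was 5906 to 8001 CPM and 5217 to 8362 CPM. The median sum was lower in heat stress for H4 (158.4 to 82.8 CPM) and H1 (1764 to 1191 CPM). It was higher for H2A (1763 to 1838 CPM), H2B (360.9 to 407.2 CPM), H3 (2371 to 2761 CPM) and all 68 (6518 to 6619 CPM). Without the 6 libraries 0 of the 68 were called. Replication-dependent histone transcripts end in a stem loop rather than a poly(A) tail, and this kit reads poly(A) ends, so these values follow the polyadenylated forms, and near-identical copies make single genes uncertain.

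**Figure D5:**
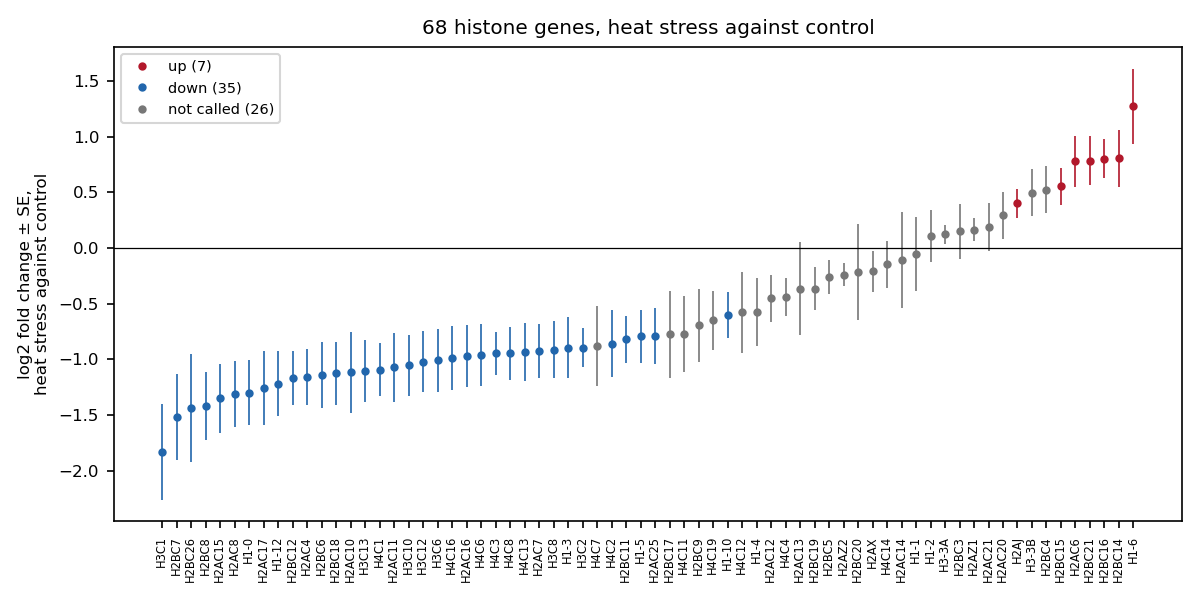
Log2 fold change (heat stress minus control, y axis) with its standard error for each of the 68 histone genes tested (x axis, in order of the change), called lower in blue (35), higher in red (7) or not called in grey. The values run from -1.83 for H3C1 to 1.27 for H1-6.

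The circadian clock, which sets leukocyte rhythms, was sampled at only these times of day. Of 19 clock genes 3 were higher and 2 lower (15.8% and 10.5%), near the 18.4% and 10.5% of all genes, with a median of -0.19. NFIL3, a repressor that is also induced by cytokines and glucocorticoids, rose from 7.62–45.3 CPM (median 21.7) to 14.5–452 CPM (median 99.5) (log2 fold change 2.81 ± 0.48). BHLHE41, a repressor of CLOCK targets, fell in all 12 calves, from 9.14–24.2 CPM (median 17.4) to 5.15–18.8 CPM (median 8.97) (log2 fold change -0.70 ± 0.18, adjusted p 0.00567). The output factor DBP was at -0.58 ± 0.21 (adjusted p 0.0416), with 37.9% of its reads on the opposite strand. PER3, CLOCK and NR1D2 were at -1.02 ± 0.48, -0.38 ± 0.18 and -0.43 ± 0.21 and were not called.

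Further genes had a large log2 fold change and rose in at least 11 calves, while the size of the rise differed widely between calves. SERPINB4, a protease inhibitor, went from 0.314–3.97 CPM (median 0.747) to 0.502–271 CPM (median 51.1) (log2 fold change 6.04 ± 0.90). CPNE2, a calcium-dependent membrane-binding protein, went from 1.46–8.26 CPM (median 2.83) to 2.93–141 CPM (median 39.1) (log2 fold change 4.15 ± 0.63). With the calf as a block the changes of SERPINB4 and CPNE2 were 4.79 and 3.12 (adjusted p 0.0112 and 0.00856). Without the 6 libraries they were 2.83 and 1.63 and were not called (adjusted p 0.149 and 0.196). Of the 7 heat stress libraries left, that of calf 29 held 39.1 CPM of CPNE2, and the others held 2.93 to 8.49 CPM. CITED2, a regulator of transcription through CBP and p300, went from 96.8–254 CPM (median 188) to 127–4676 CPM (median 1096) (log2 fold change 3.43 ± 0.56), and its rise was 3.81 to 5.45 in the 6 calves that stood apart and -0.18 to 0.77 in the other 6.

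TNFAIP6, which binds hyaluronan in inflamed tissue, went from 2.40–11.2 CPM (median 4.77) to 2.85–137 CPM (median 49.0) (log2 fold change 3.29 ± 0.49). The acute phase protein ORM1 was above the control range in 11 of 13 heat stress libraries (3.43 ± 0.57), the magnesium channel TRPM6 rose by 2.96 ± 0.47 and the neutrophil adhesion receptor ADGRG3 by 2.95 ± 0.51. HOXC9 rose by 2.96 ± 0.48, with 51.3% of its reads on the opposite strand.

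The genes whose change varied most between calves were also very large in some of them. CREG2, a secreted glycoprotein, had the largest fold change of all called genes and went from 0.0731–2.60 CPM (median 0.658) to 0.0838–181 CPM (median 62.0) (log2 fold change 6.72 ± 1.00, adjusted p 2.86e-04, 10 of 12 calves). With the calf as a block the change of CREG2 was 5.290 (adjusted p 0.009799). Without the 6 libraries it was 3.795 and was not called (adjusted p 0.1098). Of the 7 heat stress libraries left, that of calf 29 held 62.04 CPM of CREG2, and the others lay within the control range. The beta-defensin DEFB4A went from 2.24–38.6 CPM (median 9.13) to 2.35–3015 CPM (median 32.5), higher in 7 of 12 calves. Its log2 fold change was 5.86 ± 1.06 in the full comparison, 2.91 (adjusted p 0.0838) with the calf as a block, and -0.12 without the 6 libraries.

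The sample numbers of the labels run in 2 series, a low and a high range, with 7 libraries per time in the first and 6 in the second. Each series held 3 of the 6 heat stress libraries that stood apart. Of 2594 genes called in the first series and tested in the second, 2100 (81.0%) had the same direction there. The share of all genes with the same direction in both series was not taken. Across 12442 genes tested in both, which are not independent replicates, Pearson's r of the log2 fold changes was 0.62. Between them, 367 genes were called in both with the same direction and 20 with opposite directions. BANP was at 1.22 in the first and 1.24 in the second series, HSPA8 at 1.41 and 1.33, RBM3 at -0.82 and -0.53, FKBP5 at 3.26 and 3.32, and BPI at 5.19 and 5.94. SLC5A3 changed by 1.75 in the first and 0.42 in the second series, a difference that passed the test of the interaction (adjusted p 0.0272).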

How the data were processed

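The authors filtered forward reads and mapped them to the Bos taurus genome (ARS-UCD2.0), and deposited raw counts of uniquely mapped reads for 32637 genes with STAR. The submitters' processing notes name FastQC 0.11.9, MultiQC 1.14, STAR 2.7.10b and Trimmomatic 0.39. The unstranded counts of 26 Takara libraries were used, and 4 totals above the genes were left out. A single library, of animal 20, was left out because sources conflict on its time. Positions come from the RefSeq table of the same build (30284 genes matched).

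Genes passing filterByExpr (12620) were TMM-scaled and tested between the times with the quasi-likelihood test of edgeR 4.0.16 (R 4.3.3) without a block, with Benjamini-Hochberg adjustment over all of them and a threshold of 0.05. Per-library levels are CPM, and within-calf changes were taken on log2 CPM with a prior count of 2. Titles carry the calf number, and the centred profiles of the same calf correlated above 0.1 in 11 of 12 calves (median 0.232, against -0.0221 between calves), so fits with the calf as a block (24 libraries) were run beside it. Other alternatives were DESeq2 1.42.0, limma 3.58.1 voom with the calf as a random effect, other scalings, filters and strands, the number series of the labels, and leaving out each library. Filters and tests were checked on simulated data, where 62.5% of changes of log2 1 and 95.8% of log2 2 were recovered among 12475 genes, and 7.36% of calls were false. The simulated libraries were independent, few genes were changed, and each change was the same in every heat stress library. These rates may therefore not hold for paired calves that respond unequally. Library measures were compared with permutation tests (100000 resamples; exact sign changes within calves). Without molecular identifiers, several reads may stem from 1 molecule.

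The members and the 33 gene lists were chosen with earlier results of these data known. Named genes were the 12 largest rises and falls that were also called with the block, went in 1 direction in at least 11 calves and reached a mean of 5 CPM, the 8 smallest p-values, the 4 smallest p-values of each list with the genes a list is commonly known by, and the 5 rises with the largest spread between calves. Among list members, AHSA1, DNAJA1, STIP1, FKBP4, HERPUD1, KLF9, TNFAIP3, IL16, LTB, SIGIRR, PDK1 and PRDX4 were named after their values were seen.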

Additional observations from a re-analysis of the deposited data

Results flagged for a closer look

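The change over the day differed between the number series of the labels in 325 genes by the interaction of series and time (2091 had an unadjusted p under 0.05). ND3, a mitochondrially encoded subunit of complex I, changed by -0.862 more in the second series than in the first on the log2 scale, and PET117 by -2.380. The share of reads outside genes rose within calves by 4.06 percentage points in the first series and fell by 3.20 in the second, a difference of -7.266 (exact permutation test, p 0.00216, adjusted p 0.0217 over 10 measures). The share of globin reads changed by -0.00400 and by -0.0938 percentage points, a difference of -0.08974 (exact permutation test, p 0.00433, adjusted p 0.0217).

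The library of animal 20, which entered no comparison because its time is in conflict, carried the profile of large rises. All 12 of the 12 genes with the largest recurring rises were above every control there. IL1R2, the interleukin-1 decoy receptor, was at 4853 CPM (control maximum 71.3), and HSPA1A at 3200 CPM (control maximum 41.7).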

How the results depend on the processing

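All values here come from re-fitting the comparison with 1 choice changed. Against 2325 higher and 1321 lower genes, the numbers were 3604 higher without a filter on low counts, 1303 and 2185 with total counts as library size, 0 and 0 with animal 20 taken as a control (3804 genes had an unadjusted p under 0.05), 751 lower in the first series alone, 608 and 323 in the second alone, 139 and 1 for changes tested beyond a fold threshold, and 11 and 5 without the 6 heat stress libraries that stood apart, an alternative chosen after seeing the data. Leaving out 1 library gave 1970 to 2557 higher and 944 to 1802 lower genes. With the calf as a replicate block, 1881 genes were higher and 1284 lower, and of 156 named-gene values 143 kept their call, 9 lost it and 4 gained it. The interaction of series and time was called in 177 genes with the replicate block and in 164 with total counts, against 325.

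Of 156 named-gene values, 127 lost their call and 6 changed sign without the 6 libraries (ALOX5 -0.041, CEBPE -0.044, DEFB4A -0.124, EPB42 -0.133, IL12B -0.122, TFRC 0.012). In the first series alone ATP8 (0.286), GNG11 (0.189), ND3 (0.087), NRGN (0.436), PET117 (0.083), SRSF5 (0.151) and TREML1 (0.181) changed sign, and in the second EOMES (0.158), HRH4 (0.118) and IL5RA (0.646). With animal 20 as a control HSPA1A (-0.934), OASL (-0.016) and SRSF5 (0.004) did. SRSF5 also changed sign with DESeq2 (0.011), RLE size factors (0.011) and the series as covariate (0.006), and lay between -0.143 and 0.05 when 1 library was left out. The causes were not tested.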
